A study of Mus musculus with 137 samples.

Results

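The interferon regulatory factor (IRF) genes Irf1, Irf2, Irf3, Irf4, Irf5, Irf7, Irf8 and Irf9 were chosen by name and make up 8 of the 34573 gene symbols in each deposited count table. Their RNA was read in 137 libraries of mouse bone marrow-derived macrophages (BMDMs), the macrophages that grow from marrow under the growth factor M-CSF. All mice were 7 weeks old, and marrow was grown for 7 days with 20 ng/ml M-CSF and then re-plated. Cells were taken at rest (0 h) or after 6 h or 24 h of stimulation. By the protocol this was 100 ng/ml of LPS, a bacterial cell wall component sensed by TLR4, together with 100 ng/ml of interferon-gamma. Titles of the stimulated samples name LPS alone. The study asked how Beclin1, a protein that starts autophagosome formation, bears on the response to this stimulation. In cohorts KO1 and KO2 the mutant group (KO) was Beclin1flox/flox-LysM-Cre+ and the comparison group (WT) was Beclin1flox/flox-LysM-Cre-, so both groups carry floxed alleles and the recombinase is made under the LysM locus, active in myeloid cells. In cohort KI the mutant group was Beclin1F121A/F121A and the WT group came from littermates.

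IRFs share a DNA-binding domain that reads GAAA repeats, and they differ in how they are switched on. IRF3 is made constitutively and is activated by phosphorylation downstream of TLRs and nucleic acid sensors, after which it starts transcription of the interferon-beta gene. Secreted interferon then acts through ISGF3, a complex that holds STAT2 and IRF9, which raises IRF7, the factor that amplifies type I interferon genes. Interferon-gamma acts through GAS elements and raises IRF1 and IRF8 in macrophages. IRF5 serves TLR signalling to inflammatory cytokine genes, IRF2 binds the same sites as IRF1, and IRF4 is linked to lymphoid cells and to alternative macrophage activation.

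Values are normalised CPM, the count of a gene scaled to a common library size after TMM scaling. In KO1 the 3 repeats of a culture number (S33 to S35 for WT, S36 to S38 for KO) were summed, so each group holds 3 units, called cultures here. The labels do not say that such a number marks a single mouse or day, so how far these units are independent is not known. Each KO2 group has 8 libraries, except WT at 24 h with 7, and each KI group has 6. The labels do not say that libraries of KO2 and KI came from separate mice or cultures, so p-values measure the spread between these samples, which may be technical. Where samples of compared groups are said not to overlap, the share of all genes that separate so was not counted in any cohort. Libraries held 1448218 to 15627379 counts. Becn1, which encodes Beclin1, had a log2 fold change in KO against WT of -1.41 to -1.52 in KO1 and -2.63 to -3.31 in KO2, called at all 3 times in both. The KO1 calls were lost at each time without single cultures (without S33, S34 or S38 at every time, without S36 at 0 h and 24 h and without S35 at 6 h, with adjusted p up to 0.0813, 0.148 and 0.284 at the 3 times). In KI it lay between -0.08 and 0.05 and was not called. In KO2 all WT libraries carried Xist RNA and all KO libraries Ddx3y RNA, and the effects of sex and genotype there cannot be told apart. Both KO1 groups carried Ddx3y RNA (14.9 to 29.7 CPM) with Xist at 1.61 or less, and both KI groups carried Xist. A single F121A library at 0 h (library 5) stood apart by its scaling factor, 1.18 against 1.70 to 1.94 in its group.

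All 8 genes have a position in GENCODE vM21 on build mm10. Irf1 lies at chr11:53770014-53778374, Irf3 at chr7:44997648-45002848 and Irf9 at chr14:55603571-55610030, all on the plus strand. Irf7 lies on the minus strand at chr7:141262706-141266481. Irf2 (chr8:46739732-46847458) and Irf8 (chr8:120736358-120756694) share mouse chromosome 8, while Irf4 lies at chr13:30749226-30766976 and Irf5 at chr6:29526625-29541871, again on the plus strand. Reads in exon parts shared with neighbours cannot be told apart. For neighbours on the opposite strand this is because reads were unstranded: Irf5 shares 411 bases (14.1% of its exons) with Tnpo3, Irf1 shares 135 with Gm17334, Irf3 shares 88 with Bcl2l12 and Irf7 shares 45 with Phrf1. Irf9 shares 123 with Rnf31, which lies on the same strand.

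Promoter sequences are from RefSeq (build GRCm38.p6, 250 bases before to 50 after the transcript start, 5′ to 3′ on the gene's strand). Those of the other members are not printed, though Irf5 and Irf9 were also called in results below. Shown are Irf1, Irf8 and Irf2, the members with a match to the elements named next, and Irf7, which separated mutant from WT groups in 2 cohorts. In KO2 these groups also differ in sex. Capitals mark matches to the interferon-stimulated response element core (GAAA, any 2 bases, GAAA) or to the GAS element TTCNNNGAA, searched on both strands. All 8 members matched an entry by symbol.
Irf1, chr11:53769764-53770063, plus strand: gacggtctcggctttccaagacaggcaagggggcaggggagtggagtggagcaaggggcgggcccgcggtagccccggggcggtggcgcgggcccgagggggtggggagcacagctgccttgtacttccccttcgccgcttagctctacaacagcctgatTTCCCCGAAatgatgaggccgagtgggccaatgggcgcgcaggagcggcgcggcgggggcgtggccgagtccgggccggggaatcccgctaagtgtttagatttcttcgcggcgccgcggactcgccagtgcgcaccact
Irf8, chr8:120736108-120736407, plus strand: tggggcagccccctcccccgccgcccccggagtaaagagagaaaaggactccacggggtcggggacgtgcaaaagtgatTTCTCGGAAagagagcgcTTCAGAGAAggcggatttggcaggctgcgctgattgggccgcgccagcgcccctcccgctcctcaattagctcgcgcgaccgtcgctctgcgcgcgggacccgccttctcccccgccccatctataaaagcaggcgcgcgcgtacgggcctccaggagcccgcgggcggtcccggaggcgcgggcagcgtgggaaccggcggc
Irf2, chr8:46739495-46739794, plus strand: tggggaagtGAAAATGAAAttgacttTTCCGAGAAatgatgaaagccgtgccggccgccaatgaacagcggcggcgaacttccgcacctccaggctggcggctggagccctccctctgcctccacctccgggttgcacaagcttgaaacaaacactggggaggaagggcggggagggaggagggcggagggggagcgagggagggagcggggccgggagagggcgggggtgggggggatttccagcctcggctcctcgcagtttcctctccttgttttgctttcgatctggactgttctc
Irf7, chr7:141266375-141266674, minus strand: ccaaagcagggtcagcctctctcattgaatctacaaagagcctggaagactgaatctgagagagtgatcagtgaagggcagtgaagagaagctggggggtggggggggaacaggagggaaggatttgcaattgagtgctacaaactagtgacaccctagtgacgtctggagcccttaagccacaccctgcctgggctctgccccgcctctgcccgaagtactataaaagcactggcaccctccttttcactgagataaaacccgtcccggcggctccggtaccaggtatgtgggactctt
The Irf1 window held a GAS match at -90 to -82 from the start, and the Irf8 window held GAS matches at -171 to -163 and -153 to -145. The Irf2 window held a response element match at -241 to -232 and a GAS match at -224 to -216. No such letters stood in the Irf7 window, in those of Irf3, Irf4, Irf5 and Irf9, or in the second listed promoters of Irf1, Irf8 and Irf9. Over 32851 promoters of the same length, 3.44% held the response element core and 8.30% the GAS letters. These matches describe the sequence and do not show a bound site.

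In WT macrophages given LPS and interferon-gamma, Irf1 and Irf8 rose by 6 h in all 3 cohorts, and Irf7 was called higher in KO2 and KI. Irf2, Irf3, Irf5 and Irf9 changed by less than these at 6 h, and their direction depended on the scaling in at least 1 cohort. Between 0 h and 6 h, 4 of 7 tested members were called in KO1 (3 higher), 6 in KO2 and 6 in KI (all higher). The share of all tested genes called was 56.7% in KO1 (25.7% higher), 70.8% in KO2 (32.5% higher) and 73.5% in KI (36.7% higher). Between 0 h and 24 h the counts were 4, 6 and 6 members, all higher, against 41.9% of all genes (21.3% higher), 59.3% (29.6% higher) and 63.8% (33.9% higher). The median log2 fold change of the 7 members at 6 h was 0.91, 1.51 and 0.93, against -0.09, -0.11 and 0.00 over all genes. A call is an adjusted p under 0.05 over all genes of the cohort. Scaling by total counts shifts the median of all genes by -1.02, -0.82 and -1.20 at 6 h and by -1.02, -0.44 and -0.88 at 24 h, so changes are given relative to TMM scaling and named where that choice turns them. Of the genes called at 6 h, 45.3%, 45.9% and 49.9% were higher under TMM and 14.996%, 19.9% and 17.7% under total counts. At 24 h they were 50.9%, 49.99% and 53.1% under TMM and 10.5%, 23.3% and 17.4% under total counts, and from 6 h to 24 h, 52.5% and 51.4% in KO2 and KI became 74.8% and 67.3%. In bulk RNA, fewer cells that express a gene and less RNA per cell cannot be told apart.

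**Figure D1:**
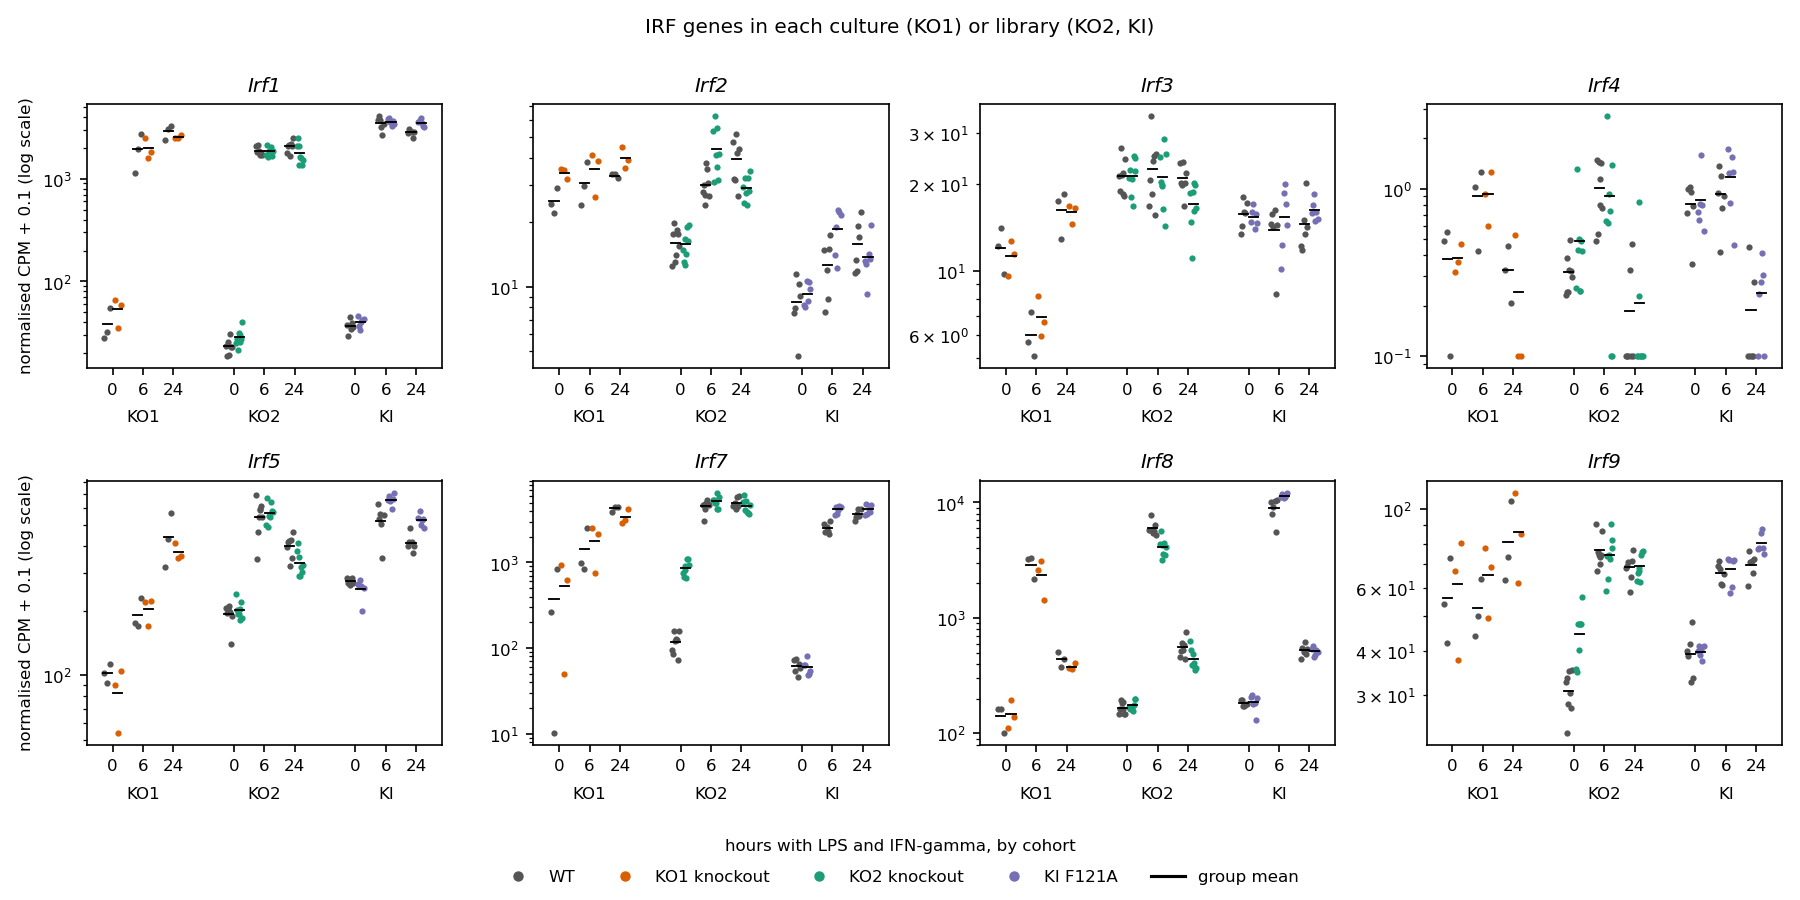
Normalised CPM of the 8 IRF genes (log axis after adding 0.1) in each culture of KO1 and each library of KO2 and KI, by time after LPS and interferon-gamma; points are samples, horizontal bars group means, and colours WT and mutant. Irf1 and Irf8 at 6 h stand above all 0 h samples in each cohort, Irf4 stays at or below 2.62 CPM, and the resting KO2 KO libraries stand above WT for Irf7.

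Irf1, the interferon-gamma-induced activator, was low at rest and rose within 6 h. KO1 WT cultures held 27.8, 31.99 and 55.6 CPM at 0 h, 1128, 1943 and 2692 at 6 h and 2346, 3034 and 3251 at 24 h. KO2 WT libraries had a lowest, median and highest value of 18.7, 23.3 and 30.5 at 0 h, 1704, 1807 and 2128 at 6 h and 1659, 2068 and 2504 at 24 h. KI WT libraries had 29.4, 36.5 and 45.6 at 0 h, 2636, 3556 and 4059 at 6 h and 2501, 2811 and 3061 at 24 h. All stimulated samples lay above all resting ones in each cohort. The log2 fold change at 6 h was 5.64 ± 0.43 (adjusted p = 3.29e-09) in KO1, 6.31 ± 0.14 (adjusted p = 2.45e-42) in KO2 and 6.55 ± 0.13 (adjusted p = 5.71e-36) in KI (values after ± are standard errors), which is a 49.9-, 79.3- and 93.5-fold rise. From 6 h to 24 h the difference was 0.58 ± 0.35 (adjusted p = 0.171) in KO1 and 0.14 ± 0.12 (adjusted p = 0.288) in KO2, not called. In KI it fell, -0.30 ± 0.10 (adjusted p = 0.00817), a call lost with no filter on low counts (-0.18, adjusted p = 0.331) and with only the groups compared (-0.24, adjusted p = 0.0761), and the direction turns to 0.04 under total-count scaling. Over all genes, 54.6%, 59.0% and 65.4% were called between 6 h and 24 h in KO1, KO2 and KI, and of the 7 members 3, 3 and 4.

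Irf8, the lineage factor of monocytes, macrophages and type 1 dendritic cells, rose and fell back. KO1 WT cultures held 101, 161 and 162 CPM at 0 h, 2179.8, 3224 and 3294 at 6 h and 373, 437 and 507 at 24 h. The lowest, median and highest KO2 WT libraries were at 146, 161 and 196, then 5217, 5801 and 7723, then 445, 523 and 759. For KI WT they were at 171, 179 and 194 at 0 h, 5556, 9627 and 10429 at 6 h and 444, 526.04 and 619.9 at 24 h. The 3 times did not overlap in any cohort, with 6 h highest and 0 h lowest. The rise to 6 h was 4.36 ± 0.36 (adjusted p = 9.39e-09) in KO1, 5.17 ± 0.14 (adjusted p = 4.95e-39) in KO2 and 5.62 ± 0.14 (adjusted p = 2.27e-32) in KI. The fall from 6 h to 24 h was -2.72 ± 0.34 (adjusted p = 2.49e-06), -3.43 ± 0.13 (adjusted p = 5.54e-30) and -4.08 ± 0.13 (adjusted p = 1.34e-27). At 24 h Irf8 still stood 3.10-, 3.35- and 2.90-fold above rest, though the KO1 call at 24 h is lost under total-count scaling (log2 0.61, adjusted p = 0.147).

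Irf7, the amplifier of type I interferon genes, rose in KO2 and KI and stayed high. Its lowest, median and highest values in KO2 WT were 71.5, 123 and 159 at 0 h, 3063, 4761 and 5380.1 at 6 h and 4233, 4878 and 5949.7 at 24 h. In KI WT they were 45.8, 61.8 and 74.7 at 0 h, 2126, 2447 and 3028 at 6 h and 3044, 3579 and 4266 at 24 h. Resting and stimulated libraries did not overlap in these cohorts, and in KI the 24 h libraries all lay above those at 6 h. At 6 h the change was 5.29 ± 0.16 (adjusted p = 6.24e-36) in KO2 and 5.35 ± 0.15 (adjusted p = 8.55e-31) in KI. From 6 h to 24 h it rose further in KI, 0.55 ± 0.12 (adjusted p = 0.000172), and by 0.12 ± 0.14 (adjusted p = 0.471) in KO2, not called. In KO1 WT, cultures S33, S34 and S35 held 261, 10.2 and 843 at rest, with S34 far below the other 2 cultures. At 6 h they held 979.6, 837 and 2527, each above the resting value of the same number, and the 2 times overlapped. The change in KO1 was 1.96 ± 0.96 (adjusted p = 0.0880) at 6 h, not called, and 3.53 ± 1.02 (adjusted p = 0.00935) at 24 h. Without S33 the 24 h call is lost (adjusted p = 0.0729). From 6 h to 24 h the KO1 change was 1.56, not called, and it passes in 4 of 14 alternatives. All 24 h cultures lay above those at 6 h. The reported fit does not pair cultures by number, and the 6 h change passes in 5 of 14 alternatives. With the culture number as a block it is 2.45 (adjusted p = 0.0164). It also passes without S35 (log2 2.73, adjusted p = 0.0452) or without the KO culture S37 (1.96, adjusted p = 0.0478). The others are no filter on low counts (adjusted p = 3.14e-05) and single libraries as units (adjusted p = 0.00136). Whether Irf7 is called at 6 h in KO1 thus depends on the fit.

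Irf3 and Irf9, which act before and after secreted interferon, changed by at most 1.31 in size on the log2 scale between rest and 6 h. Irf9 lay between 41.9 and 73.0 CPM in resting KO1 WT, 23.5 and 35.2 in KO2 and 32.7 and 48.0 in KI. At 6 h it was at 66.9 to 90.6 in KO2 and 61.0 to 71.2 in KI, above all resting libraries. Its change was 1.31 ± 0.10 (adjusted p = 3.41e-18) in KO2, where it keeps its direction under every scaling tried, and 0.76 ± 0.08 (adjusted p = 1.14e-10) in KI, where total-count scaling turns it to -0.45. At 24 h the KI change of 0.83 ± 0.08 (adjusted p = 8.84e-12) also turns, to -0.05. In KO1 it was -0.10 ± 0.30 (adjusted p = 0.790) at 6 h, which total counts move to a called -1.14, and 0.52 ± 0.29 (adjusted p = 0.166) at 24 h, which they turn to -0.50. Irf3 was called lower at 6 h in KO1, -1.02 ± 0.22 (adjusted p = 0.000556), with cultures at 9.69, 12.1 and 13.9 CPM at rest and 4.97, 5.56 and 7.11 at 6 h, which did not overlap. It returned by 24 h (12.8, 17.3 and 18.3), a change of 0.44 ± 0.20 (adjusted p = 0.0870) from rest that was not called, turns to -0.59 under total-count scaling and passes without S34 (0.71, adjusted p = 0.0255). From 6 h to 24 h the KO1 rise was 1.45 ± 0.22 (adjusted p = 2.25e-05). In KO2 its 6 h change of 0.06 ± 0.13 (adjusted p = 0.702) turns to -0.76 by total counts. In KI it was -0.18 ± 0.14 (adjusted p = 0.256) at 6 h and -0.11 ± 0.14 (adjusted p = 0.496) at 24 h, and in KO2 -0.04 ± 0.13 (adjusted p = 0.831) at 24 h. Total counts make these 3 called falls of -1.39, -0.98 and -0.46. With no filter on low counts the KI change at 6 h is also a called fall (-0.37, adjusted p = 0.0373).

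Irf5, which couples TLRs to inflammatory cytokine genes, was already abundant at rest. KO1 WT cultures held 91.6, 103 and 113 CPM at 0 h, 171, 175 and 229 at 6 h and 319.9, 432 and 569 at 24 h. KO2 WT libraries ran from 139.7, 200.3 and 211 (lowest, median, highest) to 350.3, 567.7 and 695 at 6 h and 324, 419 and 464 at 24 h, and KI WT libraries from 264, 271 and 285 to 351, 548 and 627 at 6 h and 370.2, 409 and 485.9 at 24 h. The 6 h samples lay above the resting ones in all cohorts. The 6 h change was 1.51 ± 0.10 (adjusted p = 1.65e-19) in KO2, while those of 0.91 ± 0.26 (adjusted p = 0.00617) in KO1 and 0.93 ± 0.10 (adjusted p = 1.14e-11) in KI turn to -0.13 and -0.28 under total-count scaling. The KO1 call at 6 h is also lost with no filter on low counts (0.74, adjusted p = 0.0555). From 6 h to 24 h Irf5 rose in KO1 (1.20 ± 0.26, adjusted p = 0.000852) and fell in KO2 (-0.46 ± 0.11, adjusted p = 0.000192) and KI (-0.34 ± 0.09, adjusted p = 0.00202), and the falls are lost under total-count scaling (-0.09 and -0.0043). The KI fall is also lost with no filter (-0.22, adjusted p = 0.178) and with only the groups compared (-0.28, adjusted p = 0.0527). At 24 h it stood 2.11 ± 0.27, 1.05 ± 0.11 and 0.60 ± 0.09 above rest on the log2 scale, all called, the last of which turns to -0.28 by total counts.

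Irf2, the IRF1-related factor, was called higher at 6 h and 24 h in KO2 and KI. Its 6 h change was 0.90 ± 0.14 (adjusted p = 1.74e-07) in KO2, 0.56 ± 0.20 (adjusted p = 0.0113) in KI and 0.28 ± 0.20 (adjusted p = 0.227) in KO1, the last not called. Total-count scaling leaves 0.07 in KO2 and turns KI to -0.63 and KO1 to -0.76. The KI call at 6 h is also lost with no filter on low counts (0.36, adjusted p = 0.0579). At 24 h it was 1.30 ± 0.14 (adjusted p = 5.28e-12) in KO2, 0.88 ± 0.19 (adjusted p = 0.000105) in KI, where total counts leave 0.01 (adjusted p = 0.963), and 0.40 ± 0.20 (adjusted p = 0.111) in KO1, which turns to -0.63. The lowest, median and highest KO2 WT libraries were at 12.4, 16.4 and 19.8 CPM at 0 h and 26.3, 42.2 and 51.3 at 24 h, with no overlap. Irf4 had 0 to 24 counts in a sample, at most 2.62 CPM, and passed the filter on low counts in no cohort, so it has no test.

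Targets of both interferon types rose in the same WT cells. Of 20 targets of type I interferon (such as Ifit1 and Rsad2), 17, 20 and 20 were called higher at 6 h in KO1, KO2 and KI WT, and 17, 20 and 20 at 24 h. Of 20 targets of interferon-gamma (such as Gbp2 and Cxcl9), 19, 20 and 20 were called higher at 6 h, and all 20 at 24 h in each cohort. Their medians were 3.81, 7.04 and 6.36 (type I) and 4.49, 6.12 and 6.30 (gamma) at 6 h, beside the all-gene medians given above. Of 9 interferon genes listed, Ifnb1, the gene started by IRF3, was the 1 that passed the filter in KO1 and KI, and none passed it in KO2. Ifnb1 changed by 6.24 at 6 h and 3.19 at 24 h in KO1 and 7.03 and 2.04 in KI (log2), called at each time.

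To set members side by side, CPM was divided by exon length, which gives a level per kb. The shares depend on the length used. By coding transcript length, resting WT Irf5 was at 36.7% in KO2 and 48.0% in KI, and Irf8 in KI WT at 6 h at 50.6%. The order of Irf5 and Irf8 then swaps in resting KO1 WT and in KO2 WT at 24 h. Shares below use exon length. In resting WT cells Irf5 made up 47.2% of the summed IRF level in KO2 and 59.5% in KI, followed by Irf7 at 21.7% and Irf8 at 16.8% in KO2. The ranges of Irf7 and Irf8 overlapped in KO2, and their order swaps when coding transcript length is used. Below them in resting KO2 WT came Irf3, Irf1, Irf9 and Irf2, of which Irf3 overlapped Irf1 and Irf1 overlapped Irf9, and Irf4 was lowest. In KI it was Irf8 at 16.2% before Irf7 at 10.3%, then Irf1, Irf9, Irf3, Irf2 and Irf4, with overlap of Irf1 and Irf9 alone. In resting KO1 WT Irf7 had the highest mean share, 40.3%, but ran from 3.36% to 71.9% over the 3 cultures and overlapped Irf5 at 25.1%. At 6 h Irf7 (44.1%), Irf8 (31.005%) and Irf1 (17.1%) made up most of the pool in KO2 (Irf7 and Irf8 overlapping, and swapped by coding transcript length), and Irf8 (41.8%), Irf1 (29.2%) and Irf7 (22.5%), each overlapping the next, in KI. In KO1 the 6 h shares were 34.7% for Irf1, 32.5% for Irf8 and 26.7% for Irf7, with Irf1 overlapping Irf8 and Irf8 overlapping Irf7, and Irf1 and Irf8 in swapped order by coding transcript length. At 24 h Irf7 led in all cohorts with 54.2%, 63.5% and 50.7%, and Irf1 followed with 34.4%, 24.9% and 36.97%. Irf8 had fallen to 3.03%, 3.78% and 3.87%. The summed level rose from 141 to 2745 CPM per kb in KO2 WT and from 159 to 3003 in KI WT, then stood at 2078 and 1923 at 24 h. In the same order of cohorts, Irf5 held 4.94%, 6.88% and 5.99% at 6 h, then 7.15%, 6.65% and 7.46% at 24 h. Irf2, Irf3, Irf4 and Irf9 held the rest, and Irf2 and Irf3 overlapped and swapped order by length in several groups.

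**Figure D2:**
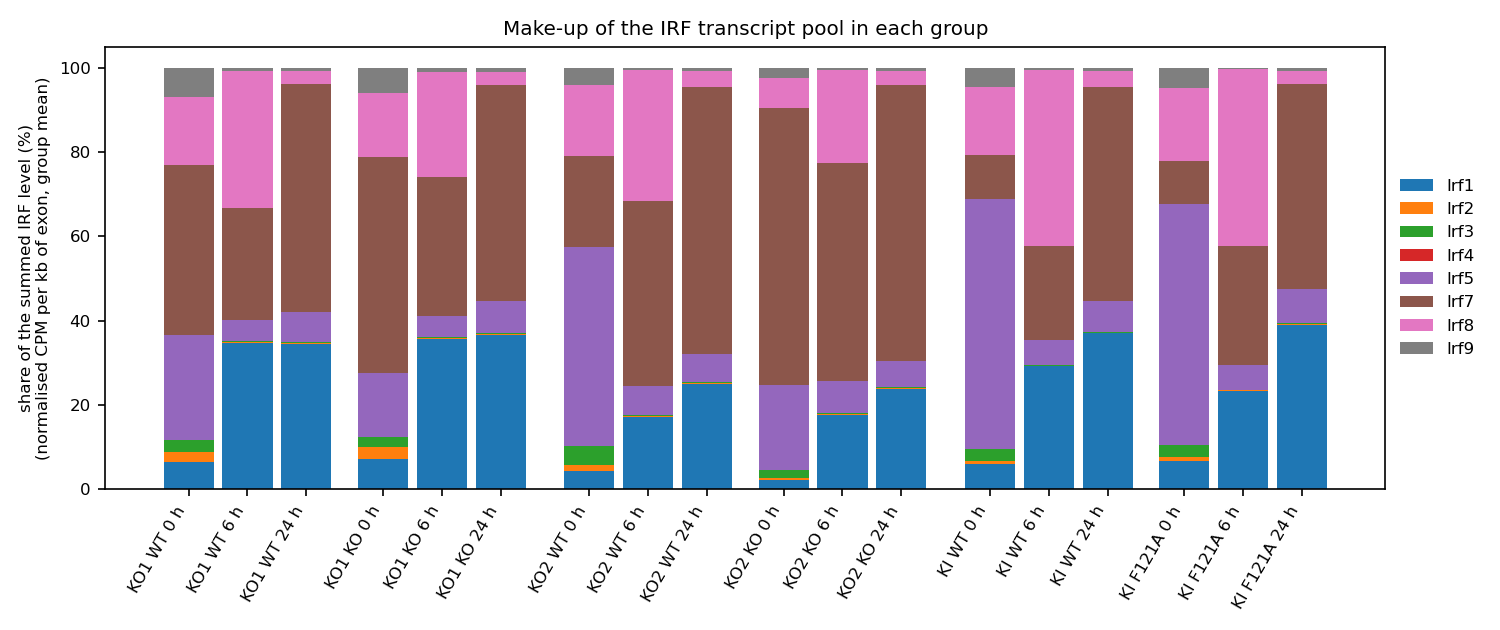
Stacked bars of each IRF gene's mean share (percent) of the summed normalised CPM per kb of exon, for each cohort, genotype and time. Irf5 is the largest part of resting KO2 and KI WT cells and Irf7 of the 24 h groups, and resting KO2 KO cells differ from WT by their Irf7 share of 65.6%.

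In resting KO2 KO cells, Irf7 and Irf9 were higher than in WT, between groups that also differ in sex. The lowest, median and highest WT libraries held 71.5, 123 and 159 CPM of Irf7, and the KO libraries held 663, 859.9 and 1093. Every KO library lay above every WT library. The log2 fold change was 2.88 ± 0.15 (adjusted p = 2.80e-23), 7.39-fold. For Irf9, the DNA-binding subunit of ISGF3, WT held 23.5, 31.5 and 35.2 and KO 34.9, 47.4 and 56.5, and 7 of 8 KO libraries lay above every WT library. Its log2 fold change was 0.54 ± 0.10 (adjusted p = 5.02e-05). The other 5 tested members were within 0.29 of WT on the log2 scale and not called (Irf1 0.29 ± 0.12, adjusted p = 0.157, which total-count scaling moves to 0.49 with an adjusted p of 0.000722). That is 2 of 7 members, both higher, where 8.28% of all genes were called (3.84% higher, 4.45% lower), and their median was 0.07 beside 0.01 over all genes. The summed level of the family per kb was 348 CPM in KO and 141 in WT, and Irf7 made up 65.6% and 21.7% of it.

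Beside Irf7 and Irf9, 19 of 20 type I interferon targets were higher in resting KO2 KO cells and none lower, with a median log2 fold change of 1.37 beside 0.01 over all genes. They included the chemokine Ccl5 (3.61 ± 0.20, adjusted p = 6.70e-22) and Oasl1 (2.02 ± 0.15, adjusted p = 3.31e-16), an interferon-induced protein that restrains Irf7 translation. Of 20 interferon-gamma targets 14 were higher (median 0.85), with the smallest p for Il18bp, a decoy for interleukin-18, at a log2 fold change of 2.08 ± 0.14 (adjusted p = 1.84e-17). Stat2, a partner of IRF9 in ISGF3, was at 0.61 ± 0.16 (adjusted p = 0.00615). Of 14 inhibitors 3 were higher, among them Usp18, which blocks the interferon receptor, at 1.56 ± 0.17 (adjusted p = 4.08e-10). Of 21 sensors and adaptors 2 were higher, the RNA sensors Ddx58 (0.73 ± 0.15, adjusted p = 0.000792) and Ifih1 (0.79 ± 0.18, adjusted p = 0.00190). The list of plasmacytoid dendritic cells, which carry high Irf7, summed to 29.7 to 40.9 CPM in KO and 24.6 to 41.7 in WT, and of its 3 tested markers edgeR called 0 (0 at an unadjusted p under 0.05, 0 by DESeq2). Its markers Ly6d, Klk1 and Pacsin1 were at 0 in all WT libraries. Of 10 macrophage markers 4 were lower and 1 higher in KO, with a summed level of 16308 to 24007 against 35719.6 to 50079 CPM in WT, and 2 of 5 tested monocyte markers were higher (7.98 to 16.9 against 4.64 to 8.44 CPM). Lyz2, from whose locus Cre is expressed, makes up most of the macrophage sum. The part of these markers in the result was not tested.

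After stimulation Irf7 rose less in KO2 KO than in WT cells, from its higher resting level. At 6 h the lowest, median and highest values were 3063, 4761 and 5380.1 CPM in WT and 4233, 5177 and 6568 in KO, and at 24 h 4233, 4878 and 5949.7 in WT and 3711, 4431 and 6180.0 in KO, overlapping at both times. The log2 fold change of KO against WT was 0.18 ± 0.14 (adjusted p = 0.430) at 6 h, which passes under total counts (0.39, adjusted p = 0.0167), and -0.12 ± 0.14 (adjusted p = 0.667) at 24 h. The difference in response between KO and WT was -2.71 ± 0.20 (adjusted p = 6.61e-16) at 6 h and -3.01 ± 0.20 (adjusted p = 1.34e-17) at 24 h, called in all 7 alternatives tried at each time. For Irf9 it was -0.58 ± 0.13 (adjusted p = 0.00420) at 6 h and -0.52 ± 0.14 (adjusted p = 0.0101) at 24 h. These Irf9 differences are lost with no filter on low counts and with libraries summed in threes (adjusted p up to 0.130 at 6 h and 0.191 at 24 h). Of 7 members 3 were called lower for the 6 h response and 2 for 24 h, where 4.07% and 5.91% of all genes were called (2.50% and 2.72% lower). Between KO2 genotypes, total-count scaling moves the share of called genes that were higher from 46.3% to 85.9% at 0 h, from 49.6% to 86.7% at 6 h and from 53.9% to 21.99% for the 24 h response, with shifts of the all-gene median of 0.19, 0.21 and -0.21. Because resting KO and WT cells enter both the resting contrast and these differences, they are not independent.

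Irf8 was lower and Irf2 higher in KO2 KO cells at 6 h. Irf8 at 6 h had 5217, 5801 and 7723 CPM (lowest, median, highest) in WT and 3151, 4211 and 5606 in KO. Of 8 KO libraries 7 lay below every WT library. The log2 fold change was -0.53 ± 0.12 (adjusted p = 0.000612), and its response differed by -0.60 ± 0.16 (adjusted p = 0.0214), a call lost with no filter and with summed libraries (adjusted p up to 0.228). Irf2 at 6 h was higher in KO (23.9, 28.7 and 37.8 in WT, 30.6, 41.3 and 62.5 in KO), with 5 of 8 KO libraries above every WT library and a log2 fold change of 0.56 ± 0.14 (adjusted p = 0.00228). At 24 h its direction was opposite: 26.3, 42.2 and 51.3 in WT and 23.8, 28.6 and 34.5 in KO, -0.45 ± 0.14 (adjusted p = 0.0234), a call lost under total-count scaling (adjusted p = 0.0808). At 6 h 2 of 7 members were called where 15.4% of all genes were (7.62% higher, 7.75% lower), and at 24 h 1 of 7 where 11.3% were (6.26% higher, 5.06% lower). The other members not called lay from -0.08 (Irf3) to 0.18 (Irf7) at 6 h and from -0.33 (Irf8) to 0.02 (Irf9) at 24 h.

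In KO2 at 24 h all 4 tested cytokines that IRF5 is known to serve (Il12a, Il12b, Il6 and Tnf) were higher in KO with a median of 2.32 beside -0.02 over all genes. Il12a was at 3.26 ± 0.27 (adjusted p = 2.99e-14) and Il6 at 2.81 ± 0.17 (adjusted p = 1.70e-20), while Irf5 was at -0.25 ± 0.10 (adjusted p = 0.115). Of 20 type I interferon targets 8 were higher at 6 h and 9 at 24 h, none lower, with medians of 0.33 and 0.26 beside 0.02 and -0.02 over all genes. Of 20 interferon-gamma targets 4 were higher and 2 lower at 6 h, and 1 higher and 2 lower at 24 h. Those of 24 h were Il12b, also an IRF5-linked cytokine, at 1.82 ± 0.21 (adjusted p = 1.12e-09), Cxcl9 at -0.70 ± 0.13 (adjusted p = 8.55e-05) and Gbp2 at -0.72 ± 0.17 (adjusted p = 0.00193). Of the macrophage markers 7 and 5 of 10 were lower at 6 h and 24 h, and 2 and 5 of 5 monocyte markers higher, and their part in these results was not tested.

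**Figure D3:**
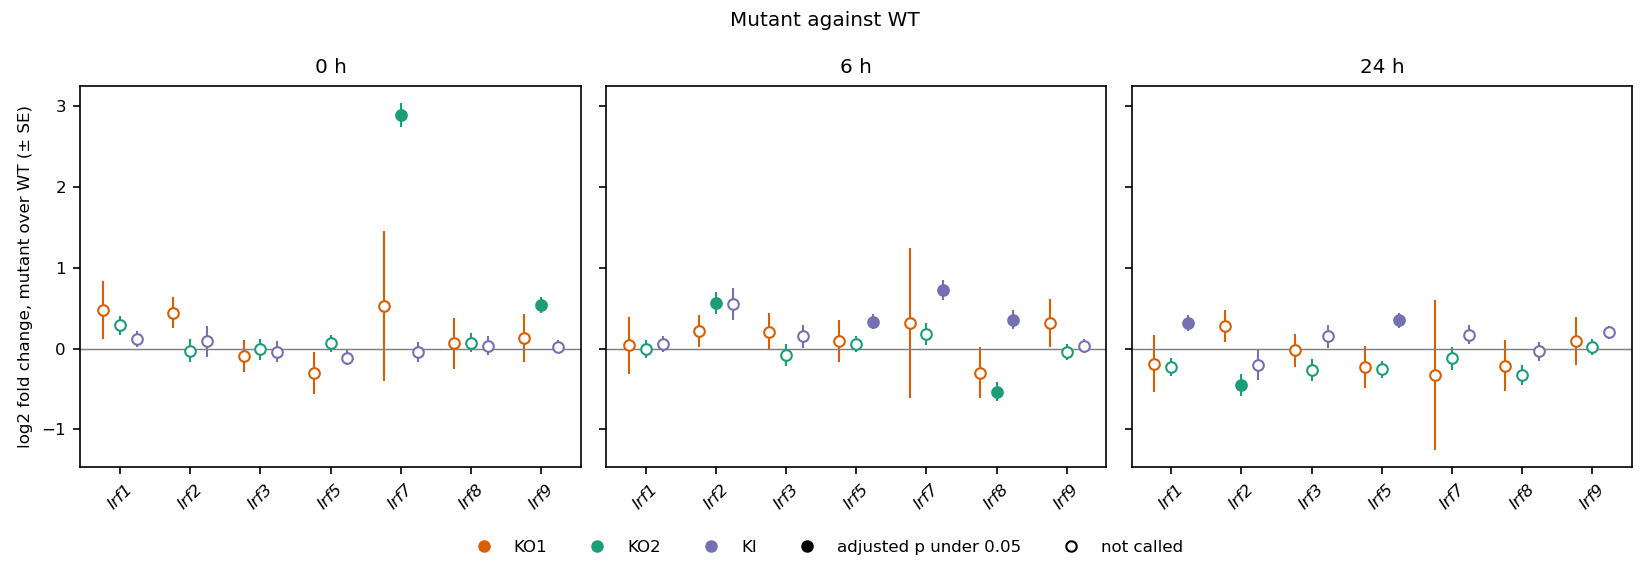
Log2 fold change of mutant against WT (points; bars are standard errors, filled points called) for the 7 tested IRF genes at 0 h, 6 h and 24 h in KO1, KO2 and KI. Irf7 at 0 h in KO2 stands alone at 2.88, the KO1 bars are widest for Irf7 and no KO1 point is filled. The KI points at 6 h all lie above 0 and are filled for Irf5, Irf7 and Irf8.

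In KI cells, Irf7, Irf8 and Irf5 were higher in F121A than in WT at 6 h, and no member was called at rest. At 0 h 0 of 7 members were called by edgeR (0 at an unadjusted p under 0.05, 0 by DESeq2) where 2.94% of all genes were (2.37% higher, 0.574% lower), and Irf7 was at -0.04 ± 0.13 (adjusted p = 0.964), with 95% limits of -0.29 to 0.21. At 6 h the lowest, median and highest Irf7 values were 2126, 2447 and 3028 CPM in WT and 3602, 4302 and 4576 in F121A, and all 6 F121A libraries lay above every WT library. The log2 fold change was 0.72 ± 0.12 (adjusted p = 5.64e-05), 1.65-fold, called in all 9 alternatives. For Irf8 WT held 5556, 9627 and 10429 and F121A 10936, 11342 and 12201, again without overlap, at 0.36 ± 0.12 (adjusted p = 0.0348). For Irf5 WT held 351, 548 and 627 and F121A 594, 660.3 and 712, with 5 of 6 above every WT library, at 0.33 ± 0.09 (adjusted p = 0.0151). The WT value of 351 came from library 5, which was also far below the others for Irf3 and was left out in no alternative. The Irf8 and Irf5 calls are lost in 4 of 9 alternatives each, with adjusted p up to 0.175 and 0.216. Thus 3 of 7 members were called, all higher, where 11.5% of all genes were (8.01% higher, 3.49% lower).

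At 24 h F121A cells held more Irf1 and Irf5. Irf1 was at 2501, 2811 and 3061 CPM in WT and 3183, 3507 and 3848 in F121A, with no overlap, and its log2 fold change was 0.31 ± 0.10 (adjusted p = 0.0426). Irf5 was at 370.2, 409 and 485.9 in WT and 486.1, 533 and 584 in F121A, where the highest WT and lowest F121A library nearly touch, at 0.35 ± 0.09 (adjusted p = 0.0154). These calls are lost in 4 and 2 of 9 alternatives (adjusted p up to 0.238 and 0.118). Irf7 was not called at 24 h (0.17 ± 0.12, adjusted p = 0.496), and 5 of 6 F121A libraries had more Irf9 than every WT library (0.20 ± 0.08, adjusted p = 0.145). That is 2 of 7 members, where 7.20% of all genes were called (3.42% higher, 3.78% lower). The Irf7 response to 6 h was larger in F121A, 0.76 ± 0.18 (adjusted p = 0.00743), lost in 1 of 9 alternatives (total counts, adjusted p = 0.0838), and the Irf5 response to 24 h by 0.46 ± 0.13 (adjusted p = 0.0377), lost in 4 of 9, one of them leaving out the resting F121A library that stood apart (adjusted p = 0.0736). These are 1 of 7 members each, where 3.30% and 4.26% of all genes were called. Total-count scaling moves the share of called genes that were higher in F121A from 80.5% to 91.7% at 0 h, from 69.7% to 58.5% at 6 h and from 47.5% to 32.7% at 24 h, and for the responses from 71.3% to 40.7% at 6 h and from 43.1% to 17.4% at 24 h. Members not called in F121A against WT lay from -0.11 (Irf5) to 0.12 (Irf1) at 0 h, from 0.03 (Irf9) to 0.55 (Irf2) at 6 h and from -0.20 (Irf2) to 0.20 (Irf9) at 24 h. The Irf2 difference at 6 h was larger than those of Irf8 and Irf5, missed the threshold (0.55 ± 0.20, adjusted p = 0.0650) and passed it in 3 of 9 alternatives, among them DESeq2 (adjusted p = 0.0398) and no filter (adjusted p = 0.0307).

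Around them in F121A at 6 h, 10 of 20 type I interferon targets were higher and 1 lower, with a median of 0.32 beside 0.02 over all genes. Those of smallest p were Cmpk2 (0.98 ± 0.14, adjusted p = 2.17e-06), Rsad2 (0.82 ± 0.13, adjusted p = 1.60e-05) and Ifit3 (0.87 ± 0.14, adjusted p = 2.58e-05), all induced antiviral proteins. Of 11 receptors, kinases and STATs 6 were higher, with the interferon receptor chain Ifnar1 at 0.65 ± 0.08 (adjusted p = 1.55e-07), and 5 of 11 partners and cofactors, with the NF-kappaB subunit Rela at 1.42 ± 0.16 (adjusted p = 2.02e-08). Of 21 sensors and adaptors 8 were higher and 2 lower. Of 20 interferon-gamma targets edgeR called 0 (3 at an unadjusted p under 0.05, 2 by DESeq2), with a median of 0.11. Of 4 IRF5-linked cytokines 2 were lower at 6 h and all 4 at 24 h (median -1.42 beside -0.0025 over all genes), with Il12a at -1.44 ± 0.18 (adjusted p = 1.23e-06) and Tnf at -1.40 ± 0.25 (adjusted p = 0.000158). At 24 h 8 of 20 type I interferon targets were higher and none lower, with a median of 0.30. At rest 9 of 20 were higher and none lower (median 0.32 beside 0.01), while Irf7 and Irf9 were not called. Of the interferon-gamma targets 7 were higher and 2 lower at rest (median 0.26), with the chemokine Cxcl9 at 2.93 ± 0.50 (adjusted p = 0.000166) and the guanylate-binding protein Gbp2 at 1.36 ± 0.21 (adjusted p = 4.20e-05). At 24 h 3 were higher and 2 lower (median 0.13), with the GTPase Igtp at 0.47 ± 0.10 (adjusted p = 0.00163). Of the IRF5-linked cytokines 2 were higher at rest, Il12b at 2.19 ± 0.48 (adjusted p = 0.00354) and Il6 at 2.15 ± 0.47 (adjusted p = 0.00354), the opposite direction to 24 h. Of 10 macrophage markers 6 were higher at 6 h, with a summed level of 53918 to 66159 CPM against 55228 to 71181 in WT. Of the markers of type 1 dendritic cells, which depend on Irf8, 2 of 4 tested were lower (128.4 to 163.9 against 177.5 to 217.0 CPM), and 3 of 5 neutrophil markers were lower. At 24 h 5 of 10 macrophage markers were higher and 2 lower, with a summed level of 17363 to 20243 against 19053 to 25159.9 CPM in WT, and Lyz2 ran from 8306 to 9886 in F121A and 11218 to 14922 in WT, without overlap. Of 6 monocyte markers 2 were higher and 2 lower at 24 h, with Chi3l3 at -3.16 ± 0.68 (adjusted p = 0.00177) (summed level 29.1 to 38.4 against 27.3 to 37.1 CPM). At rest 1 of 10 macrophage markers was higher and none lower, with a sum of 53193 to 66398 against 66891 to 75503 CPM. Their part in the results was not tested.

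In KO1 no member was called between genotypes. Of 7 members 0 were called by edgeR at 0 h, 6 h and 24 h (1, Irf2 at 0 h, 0 and 0 at an unadjusted p under 0.05, and 0 by DESeq2 at each time), where 0.0219%, 0.0219% and 0.00730% of all genes were called. Of these few genes 66.7% were higher at 0 h and at 6 h, against 100% and 50% under total counts. For the response to 6 h and 24 h 0 were called (0 unadjusted, 0 by DESeq2), where 0.00% of all genes were called at both times. Irf7 was at 0.53 ± 0.93 at rest, with 95% limits of -1.41 to 2.47. Leaving out 1 culture moved it to -0.15 (without S36), -0.05 (without S34), 0.33 (without S33), 0.40 (without S38), 1.07 (without S37) and 1.98 (without S35), none called. Irf2 lay at 31.7, 34.8 and 35.4 CPM in KO and 21.98, 24.3 and 28.8 in WT at 0 h, and its log2 fold change was 0.44 ± 0.19 (adjusted p = 0.743). All 3 KO cultures lay above WT at 0 h and at 24 h, and how many of all genes separate so was not counted. Over all 7 members the changes ran from -0.30 (Irf5) to 0.53 (Irf7) at 0 h, from -0.30 (Irf8) to 0.31 (Irf7) at 6 h and from -0.32 (Irf7) to 0.28 (Irf2) at 24 h.

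Resting KO1 cultures differed in Irf7 more than repeats of a culture did. At rest S36, S37 and S38 (KO) held 925, 49.1 and 631 CPM beside 261, 10.2 and 843 in S33, S34 and S35 (WT). Medians of repeats differed 68.3-fold between WT cultures and 20.3-fold between KO cultures, while repeats of one culture spanned 1.57- to 2.12-fold and 1.10- to 4.92-fold. Each genotype had 1 culture far below the others, S34 in WT and S37 in KO. The mean log2 CPM over type I interferon targets was 5.55, 3.46 and 7.46 in S33 to S35 and 7.74, 4.83 and 7.35 in S36 to S38, so the cultures with low Irf7 were those with the lowest target level. The spread of medians closed to 3.35- and 3.16-fold at 6 h and 1.44- and 1.57-fold at 24 h.

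**Figure D4:**
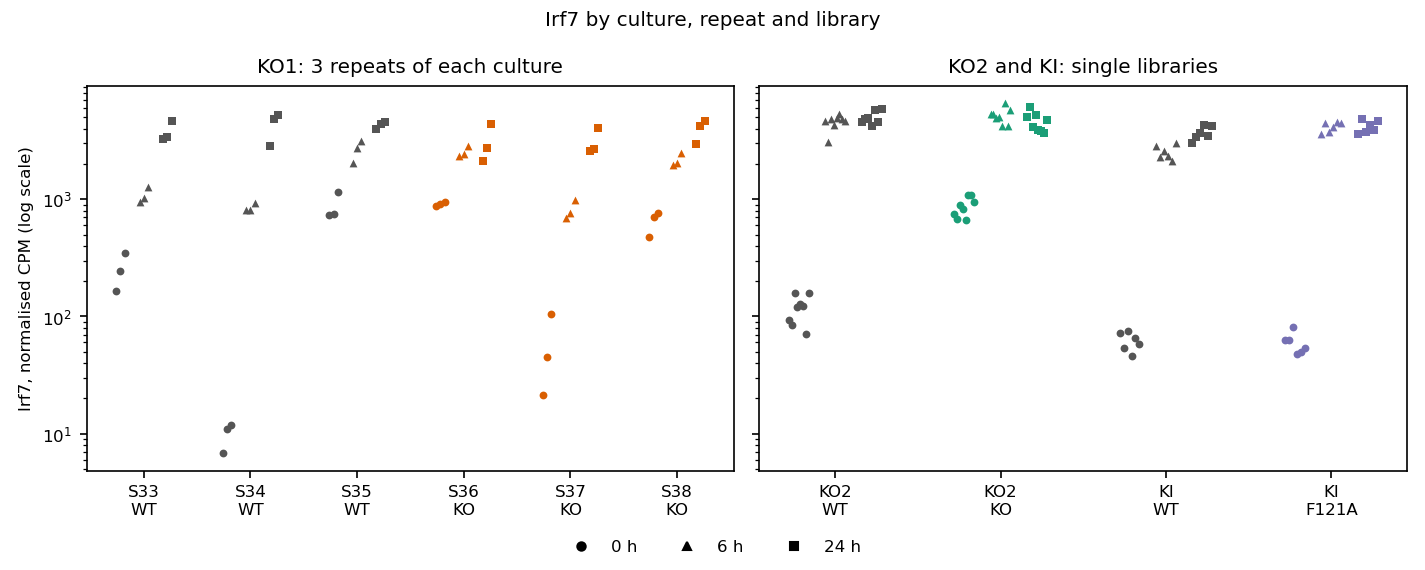
Normalised CPM of Irf7 (log axis) in each of the 3 repeats of the 6 KO1 cultures, at 0 h, 6 h and 24 h, WT and KO; repeats are ordered by value. Resting cultures lie apart, with S34 and S37 lowest, and stimulated cultures lie close together.

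Differences between the cohorts' genotype effects were tested in joint fits. Between KO1 and KO2, which compare the same genotypes but differ in how sex falls on them, the Irf7 effect at rest differed by -2.39 ± 0.63 (adjusted p = 0.0635), not called, though it passes with DESeq2 (adjusted p = 0.0355), with no filter on low counts and with total counts (adjusted p = 0.0198). Over the 7 members 0 were called by edgeR at 0 h, 6 h and 24 h (1, 0 and 1 unadjusted, and by DESeq2 1, which was Irf7, then 0 and 0), where 0.488%, 0.386% and 0.275% of all genes were called. Between KO2 and KI the Irf7 effect at rest was larger in KO2 by 2.92 ± 0.20 (adjusted p = 1.18e-21) and the Irf9 effect by 0.52 ± 0.13 (adjusted p = 0.00716), which is 2 of 7 members where 3.87% of genes were called (1.65% higher). At 6 h the Irf8 effect in KO2 differed from that in KI by -0.86 ± 0.17 (adjusted p = 8.56e-05), 1 of 7 members against 12.2% of genes. At 24 h Irf1 (-0.54 ± 0.16, adjusted p = 0.0160) and Irf5 (-0.61 ± 0.15, adjusted p = 0.00223) were lower, 2 of 7 against 7.10% of genes. The Irf9 and Irf1 differences are lost with no filter and with summed libraries (adjusted p up to 0.106 and 0.180), while those of Irf7, Irf8 and Irf5 are kept in all 5 alternatives tried. Each effect is relative to the WT group of its own cohort, which in KO2 also differs in sex from the mutant group.

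Across the 18 groups of cohort, genotype and time, each cohort centred on its own mean, the genes most like each member were as follows. Irf1 went with Cxcl11, Psme2 and Slamf8 (Pearson r of 0.997, 0.996 and 0.995 over group means), Irf8 with Rab43, Abhd16a and Tor1aip1 (0.997, 0.995 and 0.992) and Irf7 with H2-T23, Gm4951 and Tapbp (0.985, 0.983 and 0.982). Irf5 went with Adprh, Actr1a and Opa3 (0.963, 0.962 and 0.958), Irf9 with March1, H2-DMa and 5730528L13Rik (0.947, 0.946 and 0.942), Irf3 with Yipf3, Znhit2 and Xab2 (0.974, 0.938 and 0.934) and Irf2 with Rrbp1, Mitd1 and Ifit3 (0.903, 0.9001 and 0.899). They were taken from 10612 genes. Among members, Irf1 and Irf7 had the highest r, 0.953, followed by Irf7 and Irf9 at 0.916, and Irf3 had r between -0.37 and 0.22 with the others. These describe group means that share libraries and the large effect of time.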

How the data were processed

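Libraries were made by Smart-Seq2 (oligo-dT priming) and read as unstranded pairs without molecular identifiers. Per cohort, the authors deposited a raw count table by gene symbol and library, produced from TopHat alignments to mm10 and HTSeq counting per the submitters' processing notes; versions and annotation are not given in the sources used here. Library totals ran from 1898574 to 6579185 counts in KO1 (54 libraries), 1448218 to 15627379 in KO2 (47) and 3574158 to 11786453 in KI (36). Within groups, no library resembled a copy of another (smallest chi-square per degree of freedom 2.79).

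Repeats of a KO1 culture were summed. Genes were filtered by filterByExpr (13693, 10794 and 11500 kept in KO1, KO2 and KI), scaled by TMM and fitted in edgeR 4.0.16 (R 4.3.3) by the quasi-likelihood test, with 1 mean for each of the 6 groups of a cohort. Cohort differences came from joint fits of 2 cohorts (12705 and 11782 genes). Adjustment was by Benjamini-Hochberg across each fit's tested genes. Standard errors were taken as the size of the log2 fold change divided by root F, and the 95% limits use the t distribution. The code was tested on simulated data.

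The members and the 18 gene lists were chosen with earlier results of these data known. Named list genes are up to 3 called genes of smallest adjusted p per function list and comparison. Alternatives were DESeq2 1.42.0, its size factors, no filter on low counts, only the groups compared, a replicate block, samples of conflicting labels left out (2), single or summed libraries and each KO1 culture left out. The samples of conflicting labels were KO1 KO 6 h S38 repeat 3 and KI WT 6 h library 1, and the reported fits keep them as titled. Total counts in place of TMM and the F121A 0 h library 5 left out were added after seeing the data.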

Additional observations from a re-analysis of the deposited data

Results flagged for a closer look

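Of 96 groups of samples tested for a member, 6 held a sample far from the others, where chance gives about 1 in 20. Irf3 was lowest in KI WT 6 h library 5, at 8.21 CPM, with the next at 14.1. Irf5 was lowest in KO2 WT 0 h library 8, at 139.7 CPM with the next at 188.5, and in F121A 0 h library 5, at 200.3 with the next at 254.7, which is the library whose scaling factor stood apart. Irf4, near 0 throughout, was highest in KO2 KO 0 h library 2 (1.20 CPM, next 0.401), KO2 KO 24 h library 4 (0.729, next 0.128) and F121A 0 h library 4 (1.49, next 0.714).

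The effect of stimulation differed between genotypes by the edgeR interaction term for Irf7 (-2.71 at 6 h and -3.01 at 24 h), Irf9 (-0.58 and -0.52) and Irf8 (-0.60 at 6 h) in KO2, and for Irf7 at 6 h (0.76) and Irf5 at 24 h (0.46) in KI. The genotype effect differed between KO2 and KI for Irf7 (2.92) and Irf9 (0.52) at 0 h, Irf8 (-0.86) at 6 h, and Irf1 (-0.54) and Irf5 (-0.61) at 24 h, all on the log2 scale. In KO2 the mutant and WT groups also differ in sex.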

How the results depend on the processing

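The differences of mutant against WT in Irf7 (KO2 at 0 h, log2 2.87 to 3.09, and KI at 6 h, 0.67 to 0.76) and Irf9 (KO2 at 0 h, 0.48 to 0.74) kept their direction and call under each alternative tried. So did the 6 h rise of Irf1 and Irf8. No alternative separates genotype from sex in KO2. Where a value called in the reported or the alternative fit changed sign, the alternative was total counts in place of TMM. That scaling lowers the fold changes of stimulated against resting WT cells and raises those of 24 h against 6 h in KO2 and KI WT. Values called in neither also changed sign, such as Irf7 in KO1 KO against WT at 0 h without S36 or S34 and Irf9 in KO1 at 24 h under total counts. At 6 h against 0 h Irf2 was then at -0.76 and Irf5 at -0.13 in KO1, Irf3 at -0.76 in KO2, and Irf2 at -0.63, Irf5 at -0.28 and Irf9 at -0.45 in KI. At 24 h against 0 h Irf2 was at -0.63 and Irf3 at -0.59 in KO1, and Irf5 at -0.28 and Irf9 at -0.051 in KI, and from 6 h to 24 h Irf1 was at 0.038 in KI.

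The number of members called moved by more than 1.5 times in these cases, and the cause was not tested. With no filter it was 5 (KO1 WT 24 h against 6 h), 1 (KO2 genotype by time at 24 h), 0 (F121A at 24 h; KI genotype by time at 24 h) and 1 (KO1 minus KO2 and KO2 minus KI at 0 h; KO2 minus KI at 24 h). With total counts it was 4 (KO2 KO at 6 h), 5 (KO2 genotype by time at 24 h), 1 (F121A at 6 h; KO1 minus KO2 at 0 h) and 0 (F121A at 24 h; KI genotype by time at 6 h and 24 h). With summed libraries it was 1 (KO2 genotype by time at both times; F121A at 6 h and 24 h; KO2 minus KI at 0 h and 24 h) and 0 (KI genotype by time at 24 h). Single KO1 libraries gave 7 (WT 24 h against 0 h) and 6 (24 h against 6 h). DESeq2 gave 2 (KI genotype by time at 6 h), 1 (KO1 minus KO2 at 0 h) and 2 (KO2 minus KI at 6 h), and its size factors 1 (F121A at 24 h). Only the groups compared gave 2 (KI WT 24 h against 6 h) and 1 (F121A at 6 h). Leaving out samples of conflicting labels gave 2 (KI genotype by time at 6 h), and leaving out F121A 0 h library 5 gave 0 (KI genotype by time at 24 h).

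Without 1 KO1 culture the count was 4 to 5 at 6 h, 3 to 5 at 24 h and 3 to 4 between them in WT, and 0 for mutant against WT and genotype by time. Replicate numbers did not pair samples throughout. With the replicate number as a block Irf7 passed in KO1 WT at 6 h against 0 h (2.45, adjusted p = 0.0164) and Irf9 at 24 h against 0 h (0.52, adjusted p = 0.0330). The count was then 5 for KO1 WT 24 h against 6 h and 2 for KI genotype by time at 6 h, and within 1.5 times for 19 of 21 comparisons; KO1 cultures differ between genotypes, so the block could not be fitted there. Low counts limit Irf4.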
